A study of Homo sapiens with 12 samples.

Results

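The genes described here are the F-box proteins and cullins, the families that build the largest class of ubiquitin ligases in human cells. They were taken from the platform's annotation: every gene with a probe set whose single symbol starts with FBXO, FBXL or FBXW, together with CUL1, CUL2, CUL3, CUL4A, CUL4B, CUL5, SKP1, SKP2 and RBX1, with FBXO5 left out. This gave 70 of the 19775 genes with a symbol of their own on the array, on 172 probe sets, and the probe set with the highest mean over the 12 arrays stood for each gene. By RefSeq, 65 of them code for proteins, 3 are transcribed pseudogenes (FBXL21P, FBXL9P and FBXW4P1) and 2 are long noncoding RNAs (FBXL19-AS1 and FBXO38-DT). CCRF-CEM-C7H2 cells, a glucocorticoid-sensitive subclone of a human T-cell acute lymphoblastic leukemia line, received 100 nM of the synthetic glucocorticoid dexamethasone or its carrier, 0.1% ethanol. RNA was taken after 6 h or 24 h and hybridized to Affymetrix HG-U133 Plus 2.0 arrays, in 3 independent experiments per group, and each of the 4 groups thus held 3 arrays of 1 clonal line. The series asked which primary microRNA transcripts respond to glucocorticoids in such cells, and the same arrays also read the ubiquitin ligase genes.

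A cullin-RING ligase is assembled on a cullin scaffold. One end of the cullin holds the RING protein RBX1, which recruits the ubiquitin-loaded conjugating enzyme, and the other end holds an adaptor with a substrate receptor. In the SCF ligases the scaffold is CUL1, the adaptor is SKP1, and the receptor is an F-box protein. F-box proteins are named by the part that grips the substrate: FBXW proteins carry WD repeats, FBXL proteins carry leucine-rich repeats, and FBXO proteins carry other or no known domains. CUL2 and CUL5 work with elongins, CUL3 with BTB proteins and CUL4A and CUL4B with DDB1. These ligases set the life span of cell cycle regulators, transcription factors and signalling proteins, and glucocorticoids arrest and kill lymphoid leukemia cells.

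On each array between 22503 and 22941 of the 54675 probe sets reached a log2 of 4, the level taken here as background. The treatment was seen in its check genes: NR3C1, the glucocorticoid receptor, went from a mean log2 of 12.14 to 14.08 at 6 h, and TSC22D3, a direct receptor target, from background to 11.49. Of 14 T-lineage markers on the array 12 stood above 4 on all arrays and CD2 and DNTT below it on all, while none of 5 myeloid and none of 2 erythroid markers reached it. Of 4 stromal markers COL1A1 stood above it on all arrays, with a mean of 6.17, and the other 3 below it, and the mean over the 4 was 3.79 with ethanol and 3.64 with dexamethasone at 24 h. Of 4 B-cell markers CD79A and CD79B stood above it, MS4A1 and PAX5 did not, and the mean over the 4 was 5.70 with ethanol and 6.15 with dexamethasone at 24 h. The part of these markers in the results below was not tested. By the scan codes in the labels the arrays form 3 batches, 1 for each group of 6 h and 1 for the 24 h arrays as a whole. At 6 h batch and treatment cannot be told apart, whereas the 24 h comparison lies within 1 batch. The poly-A spike controls, RNAs added before labelling, were brighter with dexamethasone. A scale set by them, called the spike scale below, lowers each log2 difference by 0.47 at 6 h and by 0.34 at 24 h. The hybridization controls, added after labelling, were also brighter with dexamethasone, by 0.34 and 0.38 in the mean. At 24 h they read 11.07, 11.25 and 10.58 with ethanol and 11.31, 11.29 and 11.44 with dexamethasone in experiments 1, 2 and 3. The poly-A spikes read 6.73, 7.11 and 7.18 with ethanol and 7.32, 7.40 and 7.33 with dexamethasone there. Both shifts at 24 h were thus uneven over the experiments. No measurement here decides between the scales. A change in RNA per cell and a change in the make-up of the culture cannot be told apart in such bulk samples.

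After 24 h of dexamethasone the F-box and cullin genes moved in both directions: 14 rose, FBXO32 included, and 11 fell among the 52 that could be tested. FBXO32, a muscle atrophy ligase, came up from background, CUL1 rose most among the cullins, and the leucine-rich repeat proteins FBXL16 and SKP2 fell with FBXO41, FBXO22, CUL4A and RBX1. After 6 h only FBXO33 rose, and CUL2, FBXL16 and FBXO30 fell. A gene was tested when it reached a log2 of 4 on at least 3 of the 12 arrays, and it was called when limma's adjusted p, by Benjamini-Hochberg over all tested probe sets, was below 0.05. The called shares lay near those of all 9947 tested genes. FBXO32 is counted in those of 24 h, though its call is no test, since it reached 4 on its treated arrays of 24 h alone. At 24 h 48.1% of the members were called against 52.0% of all genes, with 26.9% higher against 23.9% and 21.2% lower against 28.1%. At 6 h 7.69% of the members were called against 6.49% of all genes, with 1.92% higher against 2.72% and 5.77% lower against 3.77%. The responses at the 2 times differed for 13 members, 25.0% against 27.1% of all genes, and were the higher at 24 h for 8 (15.4% against 12.3%) and the lower for 5 (9.62% against 14.8%). The median log2 difference at 24 h was 0.035 over the members and -0.022 over all genes, and the median size of the difference was 0.29 against 0.33. The families were measured more often than other genes, with 74.3% of the members tested against 50.3% of all genes.

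On the spike scale 3 of the 14 rises at 24 h were still called: CUL1, FBXO43 and FBXO32, whose call is no test. All 11 falls were still called, and 11 further members were called lower. Of the 14 rises FBXL5, FBXO7 and FBXO38 took the opposite sign, at -0.054, -0.095 and -0.098. Counts on that scale were 3 higher and 22 lower at 24 h, beside 9.65% and 47.0% of all genes. In all, 15 members changed sign at 24 h. At 6 h all 52 members were below 0 on it, 27 of them with a changed sign, with 35 called lower and 0 higher (0 by limma's unadjusted p as well), beside 68.0% and 1.14% of all genes. The difference between the responses was called higher for 4 and lower for 2, beside 9.97% and 5.58%. Directions below are those of the deposited values unless the spike scale is named.

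**Figure D1:**
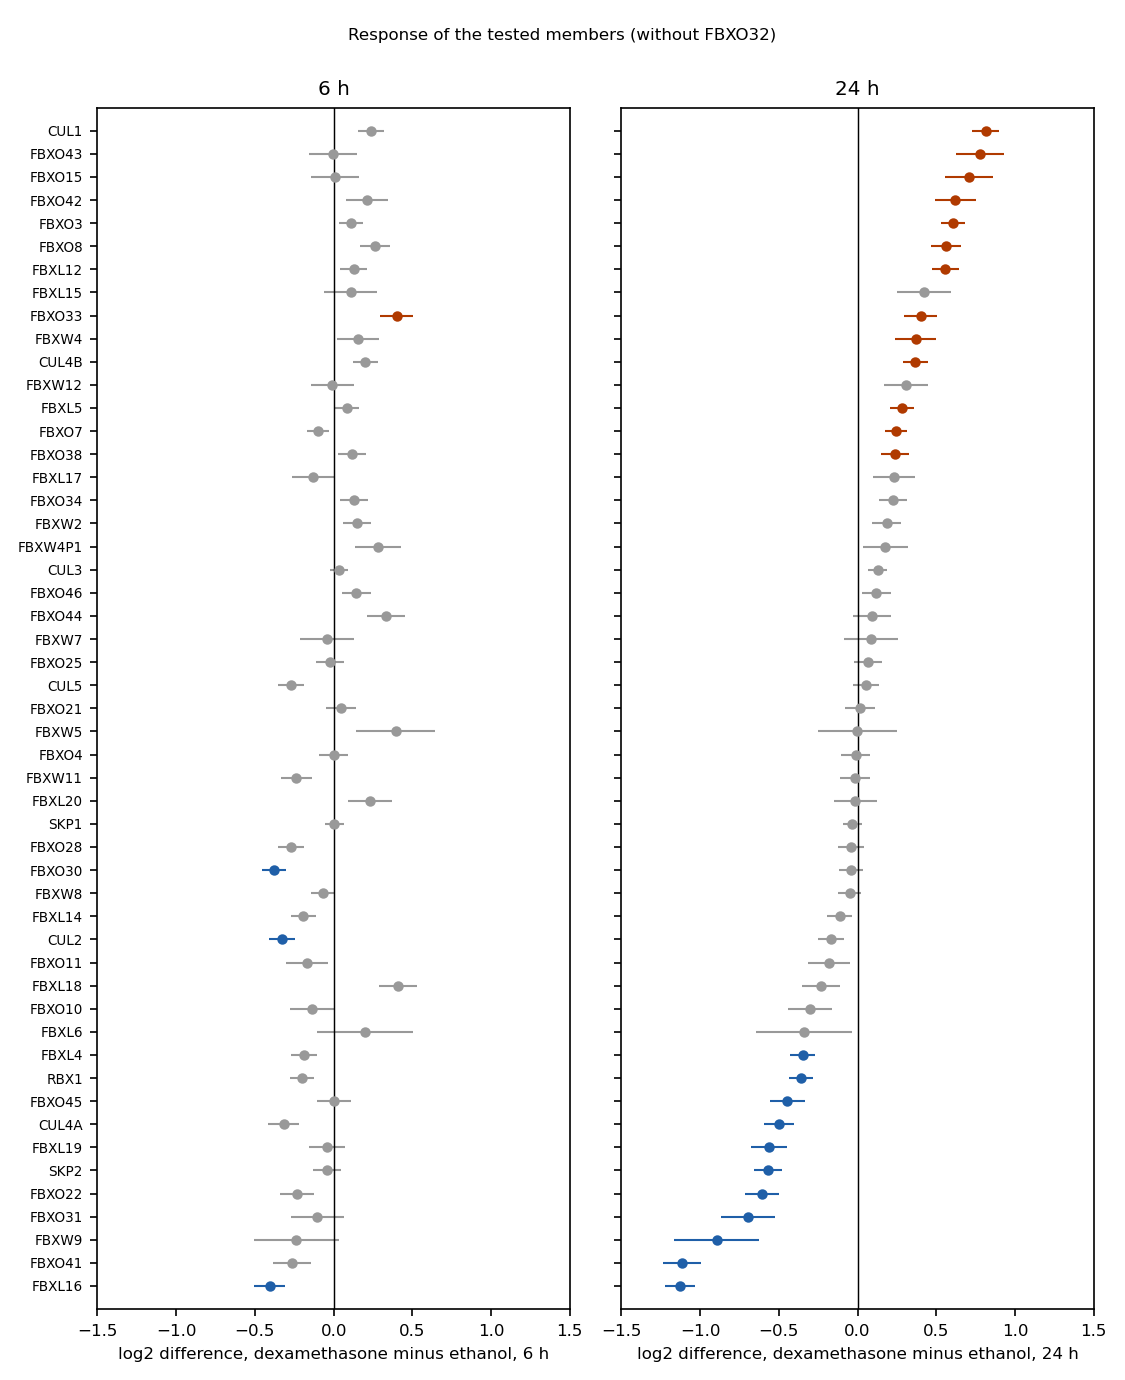
Log2 difference, dexamethasone minus ethanol, at 6 h (left) and 24 h (right) for 51 tested F-box and cullin genes, ordered by the 24 h value. FBXO32, at 4.07 at 24 h, lies beyond the axis and is left out. Points are limma estimates and bars 1 standard error (n = 3 arrays per group), with called rises in red, called falls in blue and the rest in grey. The 24 h values run from -1.13 (FBXL16) to 0.81 (CUL1). On the spike scale every value moves left by 0.47 at 6 h, which turns the called rise of FBXO33 to the other side of 0, and by 0.34 at 24 h, which does so for the called rises of FBXL5, FBXO7 and FBXO38. Uncalled values between 0 and the shift cross 0 as well.

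The 4 building blocks of the best known SCF ligase, CUL1, SKP1, RBX1 and SKP2, did not move together. CUL1, the scaffold, read 9.65, 9.86 and 9.74 with ethanol and 10.50, 10.60 and 10.60 with dexamethasone in experiments 1, 2 and 3 at 24 h. All dexamethasone arrays lay above all ethanol arrays. The rise of 0.81 ± 0.083, or 1.76-fold, had an adjusted p of 1.71e-05 in limma and was still called on the spike scale, at 0.48. A second, dimmer CUL1 probe set rose by 0.44 ± 0.14. At 6 h CUL1 read 9.89, 9.85 and 9.83 with ethanol and 10.23, 10.04 and 10.00 with dexamethasone in experiments 0, 1 and 3. These groups did not overlap either, but the difference of 0.24 ± 0.083 was not called (limma adjusted p = 0.135). The response of CUL1 at 24 h exceeded that at 6 h by 0.58 ± 0.12 (limma adjusted p = 0.00543). On the dimmer probe set the 6 h difference was -0.017, and the responses differed by 0.45, which was not called (limma adjusted p = 0.131).

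SKP1, the adaptor between CUL1 and the F-box, was called at neither time. At 24 h it read 14.51, 14.46 and 14.48 with ethanol and 14.46, 14.45 and 14.45 with dexamethasone. The treated arrays lay just below the controls, and the difference of -0.033 ± 0.061 was not called (limma adjusted p = 0.694). Its 6 h difference was 0.0052 ± 0.061 with overlapping groups, and none of its 4 tested probe sets was called at either time. SKP1 was called lower at both times on the spike scale, at -0.46 and -0.37, the value of 24 h with a limma adjusted p of 0.0409.

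RBX1, the RING subunit shared by CUL1 to CUL4 ligases, read 12.27, 12.32 and 12.33 with ethanol and 11.91, 12.06 and 11.87 with dexamethasone at 24 h. Every treated array was below every control. The log2 difference of -0.36 ± 0.078 (limma adjusted p = 0.00313) left 0.78 of the control level. At 6 h RBX1 read 12.48, 12.58 and 12.44 with ethanol and 12.20, 12.37 and 12.34 with dexamethasone, again without overlap, and the difference of -0.20 ± 0.078 was not called. RBX1 has 1 start in the RefSeq promoter table, and the 250 bases before it hold an E-box, CACGTG, the site read by MYC and its relatives.

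SKP2 is the F-box protein that marks the cell cycle inhibitor CDKN1B for destruction. It read 12.11, 12.23 and 12.16 with ethanol and 11.57, 11.75 and 11.47 with dexamethasone at 24 h. All treated arrays were lower than the controls, and it fell by 0.57 ± 0.089 (limma adjusted p = 0.000354). At 6 h SKP2 read 12.19, 12.07 and 12.22 with ethanol and 12.20, 12.02 and 12.14 with dexamethasone. The groups overlapped, the difference was -0.042 ± 0.089, and the responses at the 2 times differed by -0.53 ± 0.13 (limma adjusted p = 0.0124), which was not called on the spike scale. The brightest SKP2 probe set has probes shared with other sequences. The other probe sets of SKP2 fell by 0.87 ± 0.089 and 0.55 ± 0.12 at 24 h too, and were already called lower at 6 h, at -0.35 and -0.47 (limma adjusted p = 0.0438 and 0.0411). Whether SKP2 was called at 6 h, where batch and treatment cannot be told apart, thus depended on the probe set. Leaving out single arrays was not tried on these other probe sets.

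The sequences before the starts of RBX1 and SKP2 are shown since both genes fell at 24 h and both have a single RefSeq start. They are the 250 bases before the start on the gene's strand, from the GRCh38.p14 promoter table, with the E-box in capitals.
RBX1, chr22:40951128-40951377, plus strand: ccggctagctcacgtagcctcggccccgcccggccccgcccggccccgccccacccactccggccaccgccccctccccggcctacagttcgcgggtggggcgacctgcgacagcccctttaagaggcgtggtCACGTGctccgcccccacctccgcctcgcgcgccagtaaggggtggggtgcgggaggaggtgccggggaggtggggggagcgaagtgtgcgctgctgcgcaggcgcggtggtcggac
SKP2, chr5:36151861-36152110, plus strand: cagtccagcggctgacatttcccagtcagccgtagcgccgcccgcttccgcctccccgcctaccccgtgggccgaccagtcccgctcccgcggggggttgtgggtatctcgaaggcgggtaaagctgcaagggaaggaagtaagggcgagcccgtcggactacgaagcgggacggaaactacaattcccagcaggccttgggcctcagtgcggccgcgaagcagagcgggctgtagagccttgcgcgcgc
Neither stretch holds the other 4 motifs searched on both strands: a glucocorticoid response element (AGAACA and, 3 bases on, TGTTCT), a forkhead site (TGTTTAC), an E2F site (TTTCCCGC) and a cAMP response element (TGACGTCA). The table covers 40 of the 52 tested members, with 67 promoters. The E-box stood in 10.4% of these and in 6.34% of all 35116 promoters. The genes were RBX1, CUL4B, FBXL19, FBXL5, FBXW4 and FBXW8. The forkhead site stood in 1.49% against 2.98% (FBXO8), the E2F site in 1.49% against 1.39% (CUL4A), and the cAMP element in 4.48% against 1.65% (FBXL20 and FBXO34). The glucocorticoid element was in no member and in 1 promoter of all. These matches describe letters in a window and say nothing of a factor's binding.

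The paralogs CUL4A and CUL4B, scaffolds of the DDB1 ligases, went in opposite directions at 24 h. CUL4A read 11.00, 11.02 and 11.07 with ethanol and 10.65, 10.63 and 10.31 with dexamethasone. Its treated arrays were all below the controls, lowest in experiment 3, and it fell by 0.50 ± 0.098 (limma adjusted p = 0.00160). A second CUL4A probe set fell by 0.51 ± 0.086, and a dimmer one was at -0.015 ± 0.16, not called. CUL4B read 9.32, 9.39 and 9.39 with ethanol and 9.72, 9.64 and 9.82 with dexamethasone at the same time. All treated arrays were above the controls, and the rise was 0.37 ± 0.079 (limma adjusted p = 0.00302). The other 3 tested CUL4B probe sets were called higher as well, at 0.25, 0.35 and 0.43. The CUL4B difference was 0.028 on the spike scale and not called there, and that of CUL4A was -0.84. At 6 h CUL4A differed by -0.32 ± 0.098 (limma adjusted p = 0.0881), a value that passed the threshold without dexamethasone experiment 3 of 24 h. The 6 h difference of CUL4B was 0.20 ± 0.079, not called. The difference between the paralogs was not tested.

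Each has 4 starts in the promoter table, and 30 bases of 1 of them are shown for the motif they hold, in capitals: an E2F site on the opposite strand in CUL4A and an E-box in CUL4B.
CUL4A, chr13:113208489-113208518, plus strand: agggtggcgagGCGGGAAAggaaaaggcct
CUL4B, chrX:120560010-120560039, minus strand: actcgaggggtCACGTGctctatttatgtt

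CUL2, CUL3 and CUL5 were not called at 24 h on their brightest probe sets. CUL2, the scaffold of the VHL ligase, read 9.63, 9.77 and 9.55 with ethanol and 9.44, 9.29 and 9.24 with dexamethasone at 6 h. The treated arrays were all lower, and the log2 difference of -0.33 ± 0.082 passed the test narrowly (limma adjusted p = 0.0413). The call was kept without dexamethasone experiment 0 of 6 h or dexamethasone experiment 2 of 24 h, and leaving out any of the 10 other arrays gave an adjusted p of up to 0.130 without dexamethasone experiment 3 of 6 h. At 24 h CUL2 read 9.63, 9.70 and 9.72 with ethanol and 9.50, 9.58 and 9.45 with dexamethasone, again without overlap, and differed by -0.17 ± 0.082 (limma adjusted p = 0.113). Its second probe set was called lower at 24 h, at -0.39.

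CUL3, which works with BTB proteins such as KEAP1 and KLHL family members, read 12.01, 12.09 and 12.02 with ethanol and 12.17, 12.17 and 12.18 with dexamethasone at 24 h. The treated arrays were higher by 0.13 ± 0.059, which was not called (limma adjusted p = 0.0954). This rise was called with no filter, with cyclic loess and with a trended and robust spread. A second probe set was called in the other direction, at -0.22 ± 0.082. CUL3 was at -0.43 on the spike scale at 6 h, against 0.034 on the deposited scale. CUL5, the scaffold of the SOCS box ligases, read 9.93, 10.05 and 9.97 with ethanol and 9.72, 9.73 and 9.68 with dexamethasone at 6 h and 9.93, 10.00 and 9.84 with ethanol and 9.96, 9.85 and 10.13 with dexamethasone at 24 h. Its treated arrays were all lower at 6 h and overlapped the controls at 24 h, and neither difference, -0.27 ± 0.082 and 0.054 ± 0.082, was called.

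**Figure D2:**
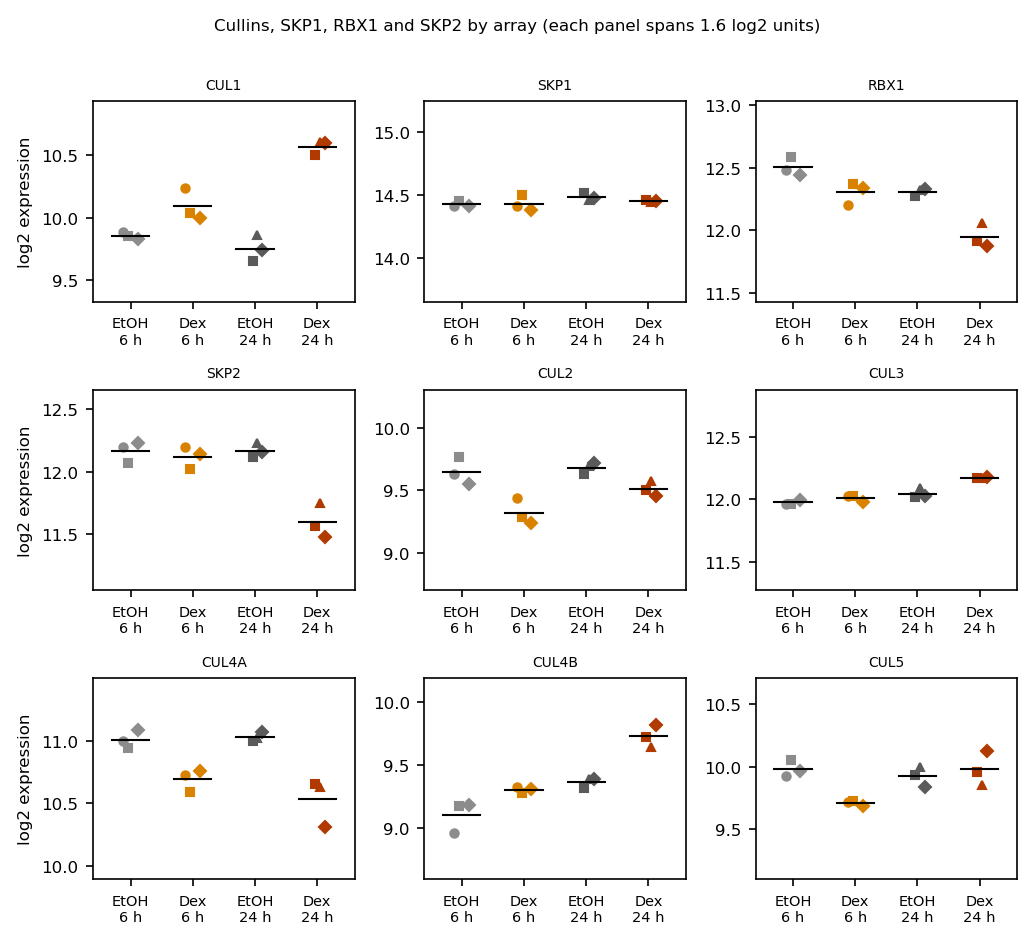
Log2 expression on each of the 12 arrays for the 6 cullins, SKP1, RBX1 and SKP2. Columns are ethanol and dexamethasone (EtOH, Dex) at 6 h and 24 h, symbols mark the experiment (circle 0, square 1, triangle 2, diamond 3), lines are group means (n = 3), and each panel spans 1.6 log2 units, so differences can be compared between panels but levels cannot. At 24 h CUL1 and CUL4B lie above their controls and RBX1, SKP2 and CUL4A below them. SKP1 and CUL3 span little of their panels. On the spike scale the CUL4B difference at 24 h shrinks to 0.028, the 6 h differences of CUL1, CUL3, CUL4B and SKP1 turn to -0.23, -0.43, -0.27 and -0.46, and those of CUL3 and CUL5 at 24 h to -0.21 and -0.28.

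Several members are host genes of microRNAs, the transcripts that the series set out to follow. The array read the host transcript and not the microRNA. Among the 52 tested members 5 were found to hold a mature microRNA of the RefSeq table within their span: CUL2, CUL4A, FBXL18, FBXL20 and FBXW7. The search did not take in every tested member, so further hosts among them are not excluded. The mature sequences are shown with the seed, bases 2 to 8, in capitals, for the 3 hosts whose microRNA lies on the host's own strand, and for FBXL18, whose strand is not in the tables used.
hsa-miR-3611, in CUL2, chr10:35079609-35079629, minus strand: uUGUGAAGaaagaaauucuua
hsa-miR-8075, in CUL4A, chr13:113262966-113262989, plus strand: uGCUGAUGgcagaugucgggucug
hsa-miR-589-5p, in FBXL18, chr7:5495873-5495894, minus strand: uGAGAACCacgucugcucugag
hsa-miR-589-3p, in FBXL18, chr7:5495834-5495857, minus strand: uCAGAACAaaugccgguucccaga
hsa-miR-3140-5p, in FBXW7, chr4:152489385-152489405, minus strand: aCCUGAAUuaccaaaagcuuu
hsa-miR-3140-3p, in FBXW7, chr4:152489336-152489357, minus strand: aGCUUUUGggaauucagguagu
These microRNAs share no seed with each other. Coordinates are those of GRCh38.p14. Of their hosts, CUL2 was called lower at 6 h and CUL4A at 24 h, as given above. FBXL20 has hsa-miR-548bc on the strand opposite to its own.

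FBXL18, an F-box protein with leucine-rich repeats, is the 1 host of the 5 with a called difference between its responses on the brightest probe set. A dimmer probe set of FBXL20 was also called, at 0.77 ± 0.23 (limma adjusted p = 0.0355). At 6 h FBXL18 read 6.30, 6.53 and 6.48 with ethanol and 6.83, 6.96 and 6.76 with dexamethasone. The treated arrays were all higher, by 0.41 ± 0.12 (limma adjusted p = 0.0686). With the experiment number as a block this was called (limma adjusted p = 0.0400), and it was also called without dexamethasone experiment 3 of 24 h. At 24 h it read 6.55, 6.58 and 6.54 with ethanol and 6.40, 6.53 and 6.05 with dexamethasone. All treated arrays were now lower, with a difference of -0.23 ± 0.12 (limma adjusted p = 0.130), which passed the threshold without dexamethasone experiment 2 of 24 h. The difference between the responses, -0.64 ± 0.17, was called (limma adjusted p = 0.0184), though not on the spike scale, where the 6 h value was -0.059, nor on the second probe set.

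FBXW7 is a tumour suppressor that is mutated in many T-cell leukemias and targets MYC, cyclin E, JUN and NOTCH1. It read 9.30, 9.53 and 9.78 with ethanol and 9.31, 9.45 and 9.71 with dexamethasone at 6 h and 9.71, 9.64 and 10.13 with ethanol and 9.80, 9.79 and 10.15 with dexamethasone at 24 h. The groups overlapped at both times. The differences were -0.044 ± 0.17 and 0.084 ± 0.17, and no probe set of the 3 tested was called. The spread among experiments was wide, and the other probe sets were at 0.47 ± 0.28 and 0.18 ± 0.23 at 24 h.

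FBXO32, also called atrogin-1, is the F-box protein best known from muscle wasting, where glucocorticoids and FOXO factors induce it. It read 2.80, 2.84 and 2.71 with ethanol and 7.63, 5.77 and 7.18 with dexamethasone at 24 h. The control arrays lay at background and the 3 treated arrays far above it, highest in experiment 1 and lowest in experiment 2. Measured against 4 on this probe set and the deposited scale, the rise was at least 2.86 on the log2 scale, or at least 7.25-fold. On the other tested probe sets the same bound was 2.68, 2.15 and 1.89. The fitted difference, which is no bound, was 4.07, and 3.74 on the spike scale. At 6 h FBXO32 read 2.80, 2.72 and 2.76 with ethanol and 2.81, 2.75 and 2.75 with dexamethasone, background on all 6 arrays. FBXO32 passed the filter through its 3 treated arrays of 24 h alone, and a gene that enters in this way had to differ, so its call is no test.

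The other tested probe sets of FBXO32 also passed the filter through the treated arrays of 24 h alone, so their likeness was set by the filter. With dexamethasone at 24 h one read 7.17, 5.92 and 6.95, another 6.65, 5.71 and 6.09 and the last 6.28, 5.32 and 6.06. Each was below 4 on the 9 remaining arrays. On all 4 probe sets experiment 2 gave the lowest treated value and experiment 1 the highest. A further 3 probe sets did not reach the filter. Their means with dexamethasone at 24 h were 4.29, 2.75 and 2.24, the latter pair at background.

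**Figure D3:**
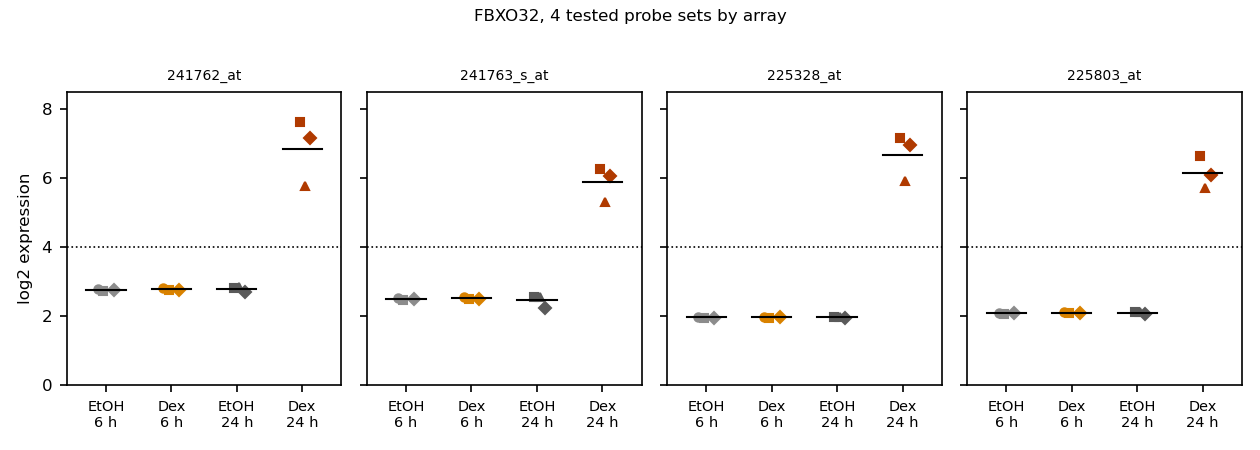
Log2 expression of FBXO32 on each of the 12 arrays, for its 4 tested probe sets. Symbols mark the experiment (circle 0, square 1, triangle 2, diamond 3), lines are group means (n = 3), and the dotted line is the background level of 4. The dexamethasone arrays of 24 h are the ones above it, between 5.32 and 7.63, and all others lie below.

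The remaining F-box genes of the 8 largest rises at 24 h were FBXO43, FBXO15, FBXO42, FBXO3, FBXO8 and FBXL12. FBXO43, or EMI2, an inhibitor of the anaphase-promoting complex known from oocytes, read 4.19, 4.48 and 4.41 with ethanol and 5.37, 5.16 and 4.88 with dexamethasone. The controls were just above background, and every treated array was higher. The rise was 0.78 ± 0.15 (limma adjusted p = 0.00167) and was still called on the spike scale at 0.44. At 6 h its difference was -0.0044 ± 0.15. FBXO15, a marker of pluripotent cells, read 5.58, 6.22 and 6.24 with ethanol and 6.83, 6.65 and 6.70 with dexamethasone. One control, of experiment 1, was lower than the others, and all treated arrays lay above all controls. The rise of 0.71 ± 0.15 (limma adjusted p = 0.00301) was accompanied by a 6 h difference of 0.0073, which the spike scale turned to -0.46.

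FBXO42, which has been linked to p53 turnover, read 7.40, 7.81 and 7.82 with ethanol and 8.16, 8.47 and 8.27 with dexamethasone. The groups did not overlap, and the rise was 0.62 ± 0.13 (limma adjusted p = 0.00271). FBXO3 read 8.21, 8.06 and 8.28 with ethanol and 8.78, 8.80 and 8.79 with dexamethasone. Its treated arrays agreed within 0.1 of each other, and the rise was 0.61 ± 0.075 (limma adjusted p = 7.00e-05), seen on its second probe set as 0.72. FBXO8, whose protein also carries a Sec7 domain, read 8.58, 8.66 and 8.74 with ethanol and 9.35, 9.07 and 9.24 with dexamethasone and rose by 0.56 ± 0.095 (limma adjusted p = 0.000586). It has the forkhead site named above. FBXL12 read 9.29, 9.25 and 9.40 with ethanol and 9.79, 9.85 and 9.97 with dexamethasone, again with no overlap, and rose by 0.56 ± 0.087 (limma adjusted p = 0.000344). On the spike scale FBXO15, FBXO42, FBXO3, FBXO8 and FBXL12 were at 0.37, 0.28, 0.27, 0.23 and 0.22 at 24 h and none was called. At 6 h that scale also turned FBXO3 from 0.11 to -0.36, FBXL12 from 0.13 to -0.34, FBXO8 from 0.26 to -0.20 and FBXO42 from 0.21 to -0.26.

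Smaller rises at 24 h were those of FBXO33, FBXW4, FBXL5, FBXO7 and FBXO38. FBXW4 was at 0.37 and lost its call without any of 5 arrays, namely ethanol experiment 3 of 6 h, dexamethasone experiment 1 or 3 of 24 h or ethanol experiment 1 or 2 of 24 h. Its adjusted p was highest, 0.142, without dexamethasone experiment 3 of 24 h. FBXL5, the iron sensor that degrades IREB2, was at 0.28 on its brightest probe set and at -0.044, not called, on the next. FBXO7, mutated in a form of parkinsonism, was at 0.24, with an adjusted p of 0.0525 without dexamethasone experiment 2 of 24 h. FBXO38 was at 0.24, and its call ended without any of 7 arrays, namely dexamethasone experiment 0 or 3 of 6 h, ethanol experiment 0 of 6 h, dexamethasone experiment 1 or 3 of 24 h or ethanol experiment 1 or 2 of 24 h. Its adjusted p was highest, 0.131, without ethanol experiment 1 of 24 h. The spike scale reverses the sign for FBXL5, FBXO7 and FBXO38, as given above.

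The largest falls at 24 h were those of FBXL16 and FBXO41. FBXL16, an F-box protein that binds the phosphatase PP2A, read 9.21, 9.26 and 9.28 with ethanol and 8.07, 8.21 and 8.10 with dexamethasone. The treated arrays agreed closely and lay more than 1 log2 unit below the controls. The log2 difference of -1.13 ± 0.098 (limma adjusted p = 5.16e-06) left 0.458 of the control level. At 6 h FBXL16 read 9.32, 9.43 and 9.29 with ethanol and 8.88, 9.16 and 8.77 with dexamethasone and was already called lower, at -0.41 ± 0.098 (limma adjusted p = 0.0349). On the deposited scale it was the only one of the 52 called lower at both times on its brightest probe set, and its 24 h response was the larger by 0.72 ± 0.14 (limma adjusted p = 0.00397). FBXO41, a protein of neurons, read 8.18, 8.35 and 8.43 with ethanol and 7.12, 7.39 and 7.12 with dexamethasone. No treated array reached a control, and it fell by 1.11 ± 0.12 (limma adjusted p = 2.30e-05). Its 6 h difference was -0.26 ± 0.12, not called and with overlapping groups.

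FBXW9 read 5.79, 6.13 and 5.94 with ethanol and 5.33, 5.21 and 4.64 with dexamethasone. The treated arrays were lower but widely spread, and the log2 difference of -0.89 ± 0.27 (limma adjusted p = 0.0185) lost its call without ethanol experiment 2 of 24 h or without dexamethasone experiment 3 of 24 h, with an adjusted p of up to 0.0778. FBXO31, which targets cyclin D1, read 6.95, 7.08 and 7.15 with ethanol and 6.03, 6.51 and 6.55 with dexamethasone. Its treated arrays were all lower, and it fell by 0.70 ± 0.17 (limma adjusted p = 0.00602). FBXO22, which targets KDM4 demethylases, read 8.94, 9.00 and 9.20 with ethanol and 8.38, 8.61 and 8.33 with dexamethasone and fell by 0.61 ± 0.11 (limma adjusted p = 0.000898). FBXL19 read 6.45, 6.62 and 6.65 with ethanol and 5.94, 6.04 and 6.05 with dexamethasone, without overlap, and fell by 0.56 ± 0.11 (limma adjusted p = 0.00183). FBXO45, at -0.45, and FBXL4, a mitochondrial protein, at -0.35, were lower by less and were called on each of their tested probe sets. All falls named here were called on the spike scale as well.

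**Figure D4:**
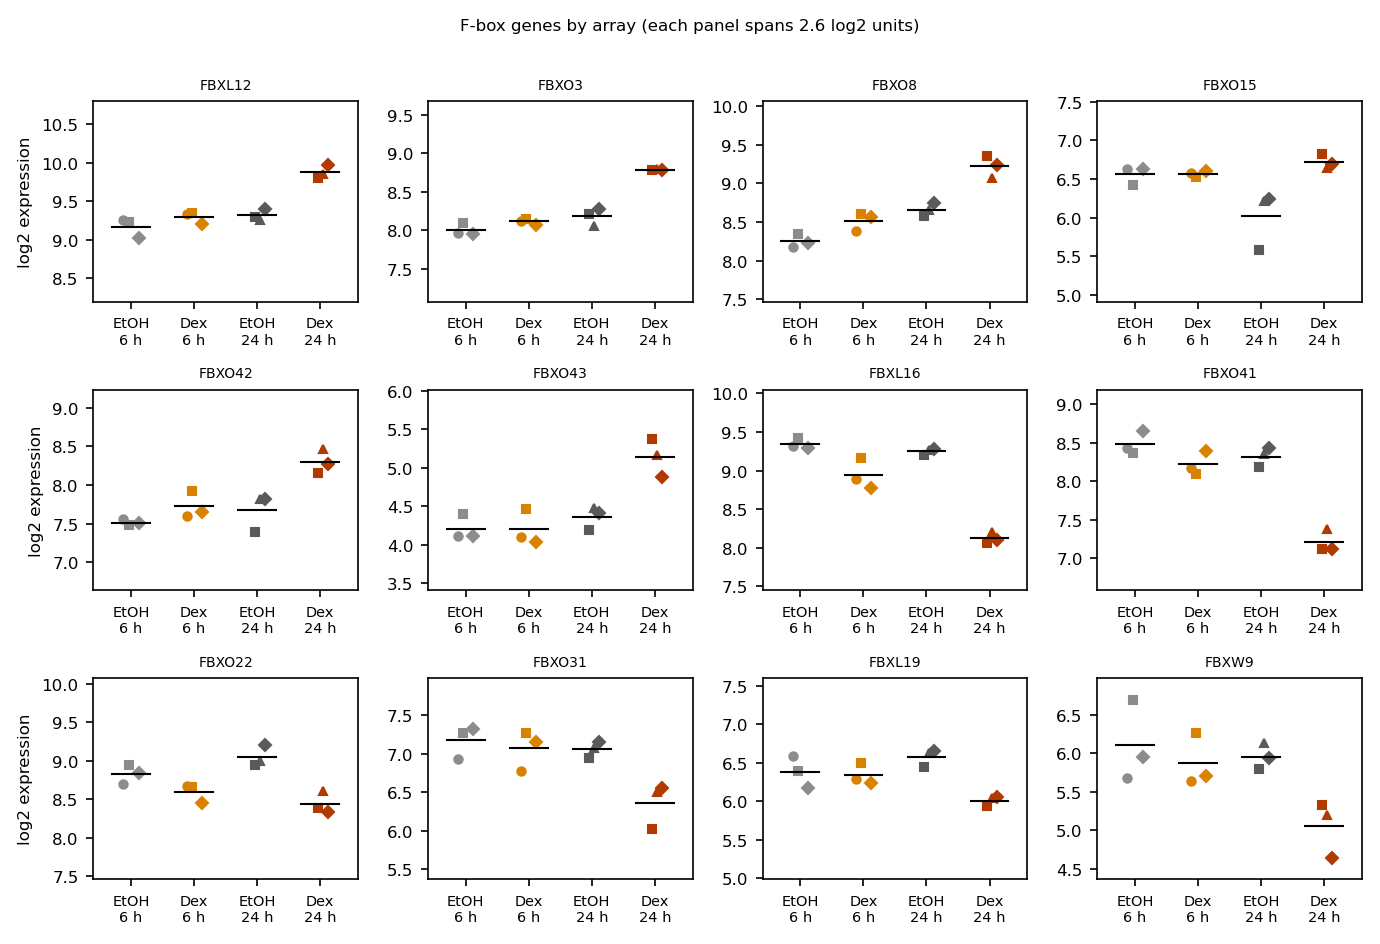
Log2 expression on each of the 12 arrays for 12 F-box genes with the largest changes at 24 h apart from FBXO32 and SKP2. Columns are ethanol and dexamethasone (EtOH, Dex) at 6 h and 24 h, symbols mark the experiment (circle 0, square 1, triangle 2, diamond 3), lines are group means (n = 3), and each panel spans 2.6 log2 units. The dexamethasone arrays of 24 h stand clear of their controls in all 12 panels, above them for FBXL12, FBXO3, FBXO8, FBXO15, FBXO42 and FBXO43 and below for the rest. On the spike scale the 6 rises shrink to between 0.22 and 0.44, and the 6 h differences of FBXL12, FBXO3, FBXO8, FBXO15 and FBXO42 turn negative.

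The 4 calls at 6 h, where batch and treatment cannot be told apart, had log2 differences between -0.41 and 0.40, and all of them were lost without 1 or another single array. FBXO33 read 8.32, 8.58 and 8.20 with ethanol and 8.71, 8.72 and 8.88 with dexamethasone at 6 h and 8.57, 8.67 and 8.68 with ethanol and 8.93, 9.06 and 9.13 with dexamethasone at 24 h. Its treated arrays were above the controls at both times, by 0.40 ± 0.10 (limma adjusted p = 0.0476) and 0.40 ± 0.10 (limma adjusted p = 0.00840). The 6 h rise was still called without ethanol experiment 1 of 6 h and lost its call without any of the 11 others, with an adjusted p of up to 0.151 without ethanol experiment 3 of 6 h, and on the spike scale it was -0.067. FBXO30, a muscle ligase gene also called MUSA1, read 8.64, 8.74 and 8.67 with ethanol and 8.36, 8.35 and 8.21 with dexamethasone at 6 h. It fell by 0.38 ± 0.076 (limma adjusted p = 0.0152), a call lost without dexamethasone experiment 3 or ethanol experiment 1 of 6 h, with an adjusted p of up to 0.0583. Its second probe set was at -0.099, and at 24 h FBXO30 read 8.80, 8.82 and 8.64 with ethanol and 8.67, 8.70 and 8.76 with dexamethasone, which overlapped. The FBXL16 fall at 6 h was still called without dexamethasone experiment 1 of 6 h or dexamethasone experiment 1, 2 or 3 of 24 h and lost its call without any of the 8 others, with an adjusted p of up to 0.111 without dexamethasone experiment 3 of 6 h. None of the 4 was called when the 6 arrays of 6 h were fitted alone. With the experiment number as a block, the calls at 6 h became 3 higher and 3 lower, with FBXL18 and FBXO44 joining FBXO33, 11.5% of the members beside 13.6% of all genes.

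By type, 9 of the 23 tested FBXO genes rose at 24 h and 4 fell. The rises include FBXO32, whose call is no test. Of the 12 tested leucine-rich repeat genes, SKP2 among them, 2 rose and 4 fell. Of 9 tested WD repeat genes 1 rose (FBXW4) and 1 fell (FBXW9). Of the 6 cullins 2 rose and 1 fell, and of the partners SKP1 and RBX1, RBX1 fell. Of all genes 23.9% rose and 28.1% fell. These counts are a description, and no difference between the types was tested. There were 25 tested members called at neither time, with 24 h differences from -0.34 to 0.42. With the experiment number as a block FBXL15, FBXL17, FBXO34 and FBXW2 were called higher and FBXL6 lower at 24 h as well, 57.7% of the members beside 61.3% of all genes. The difference between the responses was then called for 16 members, 30.8% beside 38.4% of all genes.

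The brightest probe set did not always speak for the gene. There were 29 genes with several tested probe sets. At 24 h all tested probe sets were called in the same direction for 9 of these genes, and 20 had 1 sign throughout. FBXO11, a ligase that targets BCL6, was called both ways. Its brightest probe set was at -0.18 ± 0.13 and not called, the next was higher by 0.57 ± 0.077 (limma adjusted p = 0.000134), and the dimmest stood at -0.50 ± 0.14 (limma adjusted p = 0.0140). FBXL20 was at -0.015 on its brightest probe set, and 2 of its other probe sets were called higher, at 0.80 and 0.74. For FBXW2 the brightest was at 0.19, not called, and a dimmer one was called lower at -0.49. Of 4 tested FBXO28 probe sets 1 was called, higher at 0.29. Which transcript forms these probe sets read was not examined.

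**Figure D5:**
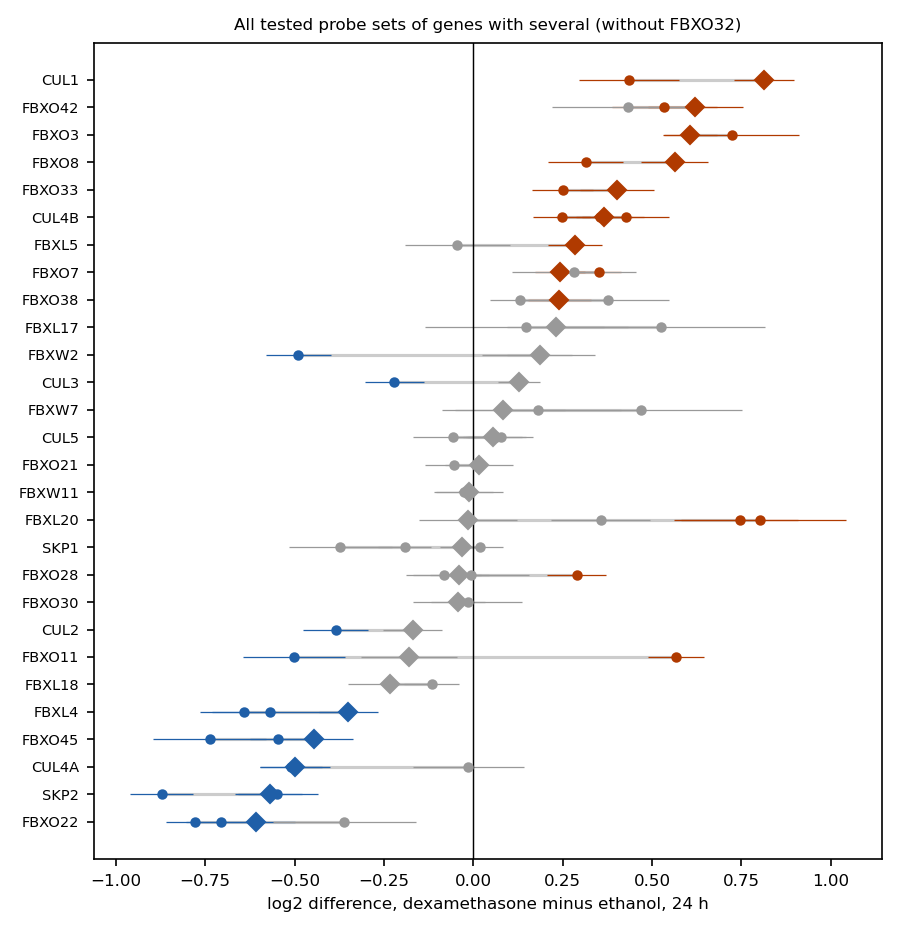
Log2 difference at 24 h for every tested probe set of the 28 genes with more than 1, FBXO32 left out. Diamonds are the brightest probe set of a gene and circles the others, bars are 1 standard error (limma, n = 3 arrays per group), red marks called rises, blue called falls and grey the rest. The probe sets of FBXO11 span both sides, from -0.50 to 0.57, whereas those of CUL4B lie on 1 side. The spike scale moves every point left by 0.34, which takes the called rises of the brightest FBXL5, FBXO7 and FBXO38 probe sets, and other values smaller than that shift, across 0.

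The 18 members that never reached 4 read between 2.05 and 3.60 over all arrays, and no statement on their response can be made at this signal. They were FBXL7, FBXL8, FBXL13, FBXL22, FBXO2, FBXO6, FBXO16, FBXO17, FBXO24, FBXO27, FBXO36, FBXO39, FBXO40, FBXW10B, the pseudogenes FBXL9P and FBXL21P and the noncoding FBXL19-AS1 and FBXO38-DT. FBXO2 and FBXO6 bind sugar chains, and FBXO40 is a muscle protein.

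The enzymes that switch cullins on and off were read from a list of 24 genes, of which 22 were tested. These proteins attach the ubiquitin-like NEDD8 to cullins, remove it again through the COP9 signalosome, or exchange the substrate receptors through CAND1. At 24 h 10 fell and 0 rose by limma's adjusted p (13 and 1 by unadjusted p), with a median of -0.22. That is 45.5% called, all of them lower, beside 52.0% of all genes called and 28.1% called lower. DCUN1D5, a cofactor of NEDD8 transfer, fell by 1.15 ± 0.079, and was also the 1 gene of the list called at 6 h (4.55% beside 6.49% of all genes), at -0.39 ± 0.079. COPS7B, a signalosome subunit, was at -0.78 ± 0.080, NAE1, a subunit of the NEDD8 activating enzyme, at -0.47 ± 0.093, and GLMN, which binds and blocks RBX1, at -0.38 ± 0.085. Of the list 16 were called lower at 24 h on the spike scale, on which 47.0% of all genes were. The 6 h call was lost without dexamethasone experiment 3 or ethanol experiment 0 of 6 h, and 1 gene of the list was called higher at 24 h without dexamethasone experiment 3 of 6 h.

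Among 39 adaptors and receptors of CUL2, CUL3 and CUL4 ligases, 9 rose and 11 fell at 24 h, with a median of 0.070. The called share of 51.3% was near the 52.0% of all genes. KLHL22, 1 of the 9, had a group mean above 4 only with dexamethasone at 24 h, at 4.31 against 3.79 with ethanol. Its call is no test if it passed the filter through that group alone. KLHL2, a CUL3 receptor, rose by 3.26 ± 0.20, and KLHL21, a CUL3 receptor of dividing cells, fell by 1.42 ± 0.11. The CUL4 receptor gene DCAF5 rose by 1.09 ± 0.12 and DCAF13 fell by 0.86 ± 0.076. The rises of KLHL2 and DCAF5 were the ones of the 9 still called on the spike scale. At 6 h 0 rose (3 by unadjusted p) and 3 fell, namely KLHL21, KLHL8 and ELOC, of which the latter pair were named after their values were seen, or 7.69% called beside 6.49% of all genes. Without dexamethasone experiment 1 or 3 or any 1 of the ethanol experiments of 6 h, 1 of these falls was called.

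Of 9 tested ubiquitin-activating, conjugating and partner enzymes 5 fell and 0 rose at 24 h, by adjusted and by unadjusted p for the rises. That is 55.6% called beside 52.0% of all genes, with 28.1% of all genes lower. UBE2D4 was at -0.97 ± 0.083, ARIH2, the partner of CUL5 ligases, at -0.64 ± 0.082, UBA6 at -0.49 ± 0.12 and CKS1B, the cofactor of SKP2, at -0.34 ± 0.092. The fifth, UBE2G1 at -0.22 ± 0.079, was named after its value was seen. None was called at 6 h (limma, 1 higher and 3 lower by unadjusted p), and 1 was called lower without dexamethasone experiment 0 of 6 h. Of 9 further tested F-box and cullin genes outside the naming rule, LMO7, a LIM domain protein also named FBXO20, rose by 1.73 ± 0.17 and KDM2B, a histone demethylase with an F-box, fell by 0.63 ± 0.11 at 24 h, and its paralog KDM2A was called lower at 6 h, at -0.41 ± 0.090, except without dexamethasone experiment 1 or 3 or ethanol experiment 1 or 3 of 6 h. Next by p at 24 h were CUL9, at 0.32 ± 0.15, and TSPAN17, at -0.30 ± 0.16, neither of them called. The called share of this list was 22.2% at 24 h and 11.1% at 6 h, beside 52.0% and 6.49% of all genes. Without ethanol experiment 1 of 6 h, 2 genes of this list were called higher at 24 h. Of 14 tested subunits of the anaphase-promoting complex, the other large cell cycle ligase, ANAPC16 rose by 0.74 ± 0.10 at 24 h. CDC23, ANAPC5 and ANAPC15 were called lower, at -0.44 ± 0.088, -0.33 ± 0.068 and -0.32 ± 0.11, which makes 28.6% called beside 52.0% of all genes. None of the 14 was called at 6 h (limma, 1 higher and 0 lower by unadjusted p).

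Of 26 tested genes whose proteins are known substrates, 11 rose and 6 fell at 24 h, or 65.4% beside the 52.0% of all genes, and 4 rose and 2 fell at 6 h, or 23.1% beside the 6.49% of all genes. Without dexamethasone experiment 1 or ethanol experiment 0 or 3 of 6 h, 1 of those falls was called. The list was written with the response of some of these genes known. MYC, a substrate of FBXW7 and SKP2, fell by 2.72 ± 0.10 at 24 h, and NFKBIA, degraded through the F-box protein BTRC, rose by 2.30 ± 0.089. BCL6, the FBXO11 substrate, rose by 5.32 ± 0.22 and JUN by 3.09 ± 0.13. PDCD4, also among the rises, had a group mean above 4 only with dexamethasone at 24 h, at 4.28 against 3.57 with ethanol. Its call is no test if it passed the filter through that group alone. Higher calls at 24 h numbered 4 on the spike scale, on which 9.65% of all genes were called higher. These are messenger RNA levels, which do not report protein turnover.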

How the data were processed

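The authors deposited log2 expression values, 1 per probe set and array. The submitters' processing notes name GCRMA and R 2.6, and the settings used are not given in the labels. In R 4.3.3, limma 3.58.1 fitted 1 mean per group over the 12 arrays (8 residual degrees of freedom, empirical Bayes moderation). The 62 control probe sets were left out. Tested were the 23265 of 54675 probe sets that reached a log2 of 4 on 3 arrays or more, the Benjamini-Hochberg adjustment ran over all of them, and an adjusted p under 0.05 was a call. Errors with ± are limma standard errors (n = 3 per group) and rest on repeat experiments with a single cell line. The script's calls were tested on simulated data. Of simulated log2 changes of 0.5, 30% were called at 6 h and 35% at 24 h, and of changes of 1, 81% and 78%. In that setting changes smaller than 1 often went uncalled. Only 100 probe sets of each size were changed among 23265, whereas 6.49% and 52.0% of all genes were called at 6 h and 24 h. The Benjamini-Hochberg cut depends on how many probe sets change, so these shares do not give the power in the data. Small changes can still go uncalled. Symbols came from the platform annotation, where 41097 probe sets carried 1 symbol, 1801 several and 11777 none, updated to RefSeq names through Entrez numbers, and all 70 members matched.

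Members and lists were chosen with earlier results of these data known. Genes given on every array were the cullins, SKP1, RBX1, SKP2, FBXW7 and FBXO32, the 8 largest rises and falls per time that passed the test with 1 direction in all 3 experiments, and the 4 largest differences between the responses in each direction. Each pathway list gave its 4 smallest p at 24 h.

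Same-numbered arrays deviated together from their group means (r = 0.417, 0.627 and 0.609 at 6 h, 0.286, 0.238 and 0.424 at 24 h). Pairs of unlike number stayed at or below 0.0500. Deviations from a group mean cancel out within the group, so these low values are no separate evidence of pairing. The experiment numbers from the labels were taken to pair the samples, and the calls leave this pairing out unless the block is named. The alternatives were cyclic loess, the experiment as a block, the filter at 6 or left out, centring on the median, the spike scale, a trended and robust spread, single times, other probe sets of a gene, and each array left out. Sequences came from RefSeq tables (GRCh38.p14) and were searched on both strands.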

Additional observations from a re-analysis of the deposited data

Results flagged for a closer look

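For 13 members the response at 24 h differed from that at 6 h by limma's test of the difference itself, 25.0% of the tested members beside 27.1% of all genes. The difference contains the 6 h comparison, in which batch and treatment cannot be told apart. FBXO32, below a log2 of 4 on 9 arrays, passed the filter through its 3 treated arrays of 24 h alone and had to differ. Its fitted 4.06 is thus no test. On its brightest probe set and the deposited scale the level of 4 bounds its rise at 24 h at 2.86 or more, and its other probe sets gave lower bounds. The difference was positive for FBXO43 at 0.78 ± 0.22 (adjusted p = 0.0248), FBXO15 at 0.70 ± 0.22 (0.0391), CUL1 at 0.58 ± 0.12 (0.00543) and FBXO3 at 0.50 ± 0.11 (0.00733). Smaller positive differences were those of FBXL12 at 0.43 ± 0.12 (0.0277), FBXO7 at 0.34 ± 0.099 (0.0296) and FBXO30 at 0.34 ± 0.11 (0.0445). It was negative for FBXO41 at -0.85 ± 0.17 (0.00461), FBXL16 at -0.72 ± 0.14 (0.00397), FBXL18 at -0.64 ± 0.17 (0.0184), SKP2 at -0.53 ± 0.13 (0.0124) and FBXL19 at -0.52 ± 0.16 (0.0371).

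On the spike scale the differences of FBXL12, FBXL18, FBXL19, FBXO3, FBXO7, FBXO30 and SKP2 were no longer called. On the second brightest probe set those of CUL1, FBXL18 and FBXO30 were not called, with FBXO30 at 0.083 (limma adjusted p = 0.825), whereas those of FBXO3, FBXO7 and SKP2 were. Leaving out single arrays ended the call for 6 of the 13. For FBXO30 any of the 12 arrays did so, with an adjusted p of up to 0.0976 without dexamethasone experiment 3 of 24 h. FBXL12 lost the call without dexamethasone experiment 3 of 6 h, ethanol experiment 0 or 1 of 6 h, dexamethasone experiment 3 of 24 h or ethanol experiment 1 or 2 of 24 h, and its adjusted p reached 0.0690 without ethanol experiment 2 of 24 h. The FBXL19 difference was still called without dexamethasone experiment 3 of 6 h, ethanol experiment 0 of 6 h or ethanol experiment 1 of 24 h but not without any other array, and its adjusted p reached 0.0828 without dexamethasone experiment 1 of 24 h. The FBXO15 difference was still called without ethanol experiment 1 of 6 h, dexamethasone experiment 2 of 24 h or ethanol experiment 1, 2 or 3 of 24 h but not without any other array, and its adjusted p reached 0.0873 without dexamethasone experiment 1 of 24 h. FBXO43 lost the call without dexamethasone experiment 0 or 3 of 6 h, ethanol experiment 1 of 6 h, dexamethasone experiment 1 of 24 h or ethanol experiment 1 of 24 h, and its adjusted p reached 0.0604 without ethanol experiment 1 of 24 h. The FBXO7 difference was still called without dexamethasone experiment 3 of 6 h, ethanol experiment 1 of 6 h, dexamethasone experiment 1 or 3 of 24 h or ethanol experiment 3 of 24 h but not without any other array, and its adjusted p reached 0.0655 without ethanol experiment 1 of 24 h. With the experiment number as a block FBXO15 was at an adjusted p of 0.0506 and no longer called. FBXL17 was called higher, and FBXL6, FBXO31 and FBXO45 lower.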

How the results depend on the processing

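The counts of members called depended mainly on the scale. At 6 h, where 1 member was called higher, the count was 0 with no filter (6 by unadjusted p), on the spike scale (0), with the 6 h arrays alone (5) and on the second brightest probe sets (1), and 3 with the replicate block. The count of 3 lower at 6 h became 35 on the spike scale and 0 with the 6 h arrays alone (7 by unadjusted p). At 24 h the 14 higher became 3 on the spike scale, both counts with FBXO32, whose call is no test. The 11 lower became 22 there and 7 on the second brightest probe sets, which fewer genes have. For the difference between the responses, the 8 higher became 4 on the spike scale, and the 5 lower became 8 with the replicate block, 2 on the spike scale and 2 on the second brightest probe sets. With no filter the calls of FBXL16 and FBXO33 at 6 h and of FBXO38, FBXW4 and FBXW9 at 24 h were lost. So were the calls of the difference for FBXL19, FBXO15 and FBXO43. Centring on the median ended the call of FBXO38 at 24 h and of the difference for FBXO7 and FBXO30. Leaving out each array in turn gave 0 to 1 higher and 0 to 4 lower at 6 h, 12 to 16 higher and 10 to 12 lower at 24 h, and 4 to 7 higher and 4 to 5 lower for the difference. The spike scale turned the sign of 27 of the 52 members at 6 h and of 15 at 24 h. Among those at 6 h were CUL3 (-0.43), FBXL12 (-0.34), FBXO15 (-0.46), FBXO3 (-0.36), FBXO33 (-0.067) and SKP1 (-0.46), and among those at 24 h FBXL5 (-0.054), FBXO38 (-0.098) and FBXO7 (-0.095). On the second brightest probe set 12 of 29 members had the opposite sign at 6 h. At 24 h 6 did: CUL3 (-0.22), FBXL5 (-0.044), FBXO21 (-0.053), FBXL20 (0.80), FBXO11 (0.57) and SKP1 (0.018). The spike scale changes counts by its construction, a shift of 0.47 or 0.34, and the causes of the other changes were not tested. The pairing of the experiments changed no calls at 24 h other than the 5 gained, and signal over background limits what can be said of the 18 undetected members and of FBXO32 before 24 h.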
